A study of Mus musculus with 4 samples.

Results

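The genes of the mitochondrial respiratory chain that lie in the nuclear genome were examined in a map of GS-TRa1, a GS-tagged form of the thyroid hormone receptor TRα1, in mouse striatum. Members were taken by symbol from the RefSeq annotation of GRCm38: every protein-coding gene whose symbol starts with Nduf, Sdha, Sdhb, Sdhc, Sdhd, Uqcr, Cox4 to Cox8 or Atp5. This rule found 100 of 21883 protein-coding genes, 49 named for complex I, 8 for complex II, 8 for complex III, 18 for complex IV and 17 for complex V. The symbols take in more than subunits: 12 members are assembly factors, 7 are isoforms used in particular tissues or conditions, 3 are related genes (Ndufa4l2, Ndufb4b and Ndufb4c) and 1 is a supercomplex factor (Cox7a2l). Each symbol was kept under the complex it is named for, although Ndufa4 is now counted with complex IV. A gene was called marked when the summit of a deposited peak lay inside its span or within 30 kb of it.

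Chromatin immunoprecipitation sequencing was done on striatum from a cross of Gad2Cre with ThraGS, and every library came from that cross. The series holds 1 input library made without antibody and 3 IP fractions taken with IgG-coated magnetic beads, together with 1 peak list for the series. The Gad2 gene encodes a glutamate decarboxylase, so its promoter is used to direct Cre to GABAergic neurons, which make up most striatal neurons; how the ThraGS allele responds to Cre, and the age, sex and number of the animals, are not given in the sources used here. An IP from striatum without the tagged receptor was not analysed here, the list has no value per library, and no spread between the IP fractions can be given for any value; the labelled tissue could not be checked against its markers, since no expression was measured.

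The respiratory chain sits in the inner mitochondrial membrane. Complexes I and II pass electrons from NADH and succinate to ubiquinone, complex III passes them to cytochrome c, and complex IV passes them to oxygen. Complexes I, III and IV move protons out of the matrix, and complex V, the ATP synthase, lets them return and makes ATP. Thyroid hormone is known to raise oxygen use in many tissues, and neurons depend heavily on oxidative phosphorylation. TRα1 is a nuclear receptor that binds DNA with or without hormone, usually with a retinoid X receptor, and its classical element is a pair of AGGTCA-like half-sites in direct repeat.

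The 250 bases before the annotated start site are printed for 6 of the members that had a summit within 1 kb of that site. They are shown because the clearest feature of these genes was the position of their peaks, and the capitals, which are the bases inside the deposited peak, show where each peak reached the upstream sequence. Ndufa5 is at chr6:24527691-24527940 (minus strand), Ndufb10 at chr17:24724424-24724673 (minus strand) and Ndufv3 at chr17:31519865-31520114 (plus strand). Sdhaf4 is at chr1:24005641-24005890 (minus strand), Atp5g2 at chr15:102671048-102671297 (minus strand) and Atp5h at chr11:115419920-115420169 (minus strand). All were copied from RefSeq GRCm38.p6 and are written 5′ to 3′ on the gene's strand, with the start site directly after the last base.
Ndufa5: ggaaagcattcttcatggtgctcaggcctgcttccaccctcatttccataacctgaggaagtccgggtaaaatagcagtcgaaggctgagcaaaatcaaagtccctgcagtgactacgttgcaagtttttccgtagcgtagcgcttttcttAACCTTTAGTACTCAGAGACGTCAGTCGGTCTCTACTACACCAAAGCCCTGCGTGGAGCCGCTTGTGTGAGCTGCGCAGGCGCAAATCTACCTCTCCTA
Ndufb10: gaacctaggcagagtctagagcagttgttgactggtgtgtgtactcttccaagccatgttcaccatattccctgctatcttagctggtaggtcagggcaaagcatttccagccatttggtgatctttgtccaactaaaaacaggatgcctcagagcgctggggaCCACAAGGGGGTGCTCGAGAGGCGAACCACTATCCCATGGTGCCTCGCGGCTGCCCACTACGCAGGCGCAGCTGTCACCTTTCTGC
Ndufv3: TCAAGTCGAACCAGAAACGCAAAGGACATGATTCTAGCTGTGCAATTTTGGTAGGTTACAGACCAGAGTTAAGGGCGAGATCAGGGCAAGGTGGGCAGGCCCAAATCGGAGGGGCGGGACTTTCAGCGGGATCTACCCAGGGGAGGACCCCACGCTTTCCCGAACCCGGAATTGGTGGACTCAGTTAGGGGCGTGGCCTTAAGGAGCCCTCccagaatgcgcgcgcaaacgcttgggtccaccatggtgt
Sdhaf4: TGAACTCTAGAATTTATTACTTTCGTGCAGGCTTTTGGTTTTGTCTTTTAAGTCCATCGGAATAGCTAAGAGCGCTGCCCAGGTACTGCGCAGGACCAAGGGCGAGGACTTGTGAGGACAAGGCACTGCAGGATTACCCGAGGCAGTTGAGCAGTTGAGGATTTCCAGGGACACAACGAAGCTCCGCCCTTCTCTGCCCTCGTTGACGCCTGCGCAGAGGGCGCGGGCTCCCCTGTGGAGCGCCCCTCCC
Atp5g2: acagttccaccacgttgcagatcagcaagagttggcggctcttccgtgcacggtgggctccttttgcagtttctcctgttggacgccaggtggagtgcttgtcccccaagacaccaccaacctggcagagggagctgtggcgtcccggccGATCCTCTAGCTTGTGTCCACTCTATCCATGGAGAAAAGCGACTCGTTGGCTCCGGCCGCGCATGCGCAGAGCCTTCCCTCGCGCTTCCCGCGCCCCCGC
Atp5h: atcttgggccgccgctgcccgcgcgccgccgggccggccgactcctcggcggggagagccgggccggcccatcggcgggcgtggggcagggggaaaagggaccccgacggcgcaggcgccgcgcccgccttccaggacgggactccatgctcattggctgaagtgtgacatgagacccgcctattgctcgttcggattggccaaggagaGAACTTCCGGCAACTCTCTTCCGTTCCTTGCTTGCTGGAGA

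The peak covered all 250 bases before Sdhaf4 and 211 of them before Ndufv3, where the summits lay upstream. It covered only the last 99 bases before Ndufa5, 100 before Atp5g2, 86 before Ndufb10 and 41 before Atp5h, where the summits lay just after the start site.

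Of the 100 respiratory chain genes, 40 were marked by a summit within 30 kb (40.0%, 95% exact Clopper-Pearson interval 30.3 to 50.3), where the background over all protein-coding genes was 32.4%. Respiratory chain genes are short, with a median span of 7.34 kb against 17.2 kb for other genes, so a fixed window around them is narrower. Other genes of similar length, taken from 10 classes of span length and weighted as the members fall into them, were marked in 28.5% of cases, 11.5 percentage points less. The intervals given here cover the counting of genes only, and no difference was tested, since 1 peak list allows no comparison over samples.

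A summit lay inside the span of 16 members (16.0%, 9.43 to 24.7), against 13.7% of all protein-coding genes and 7.05% of genes of similar length. Within 1 kb of either gene end there was a summit for 16 members (16.0%, 9.43 to 24.7), against 6.63% of all genes and 6.38% of those of similar length. As the window around the span was widened, the members' share rose from 16.0% with no extension to 21.0% at 5 kb, 25% at 10 kb, 36.0% at 20 kb and 67.0% at 100 kb. The difference from genes of similar length was 8.95 points with no extension, 9.07 at 1 kb, 7.96 at 5 kb, 8.53 at 10 kb, 13.3 at 20 kb, 10.5 at 50 kb and 14.2 at 100 kb. Each wider window contains the narrower ones, so most of the difference at 30 kb was already there with the span alone, and it did not grow from 1 to 10 kb.

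**Figure D1:**
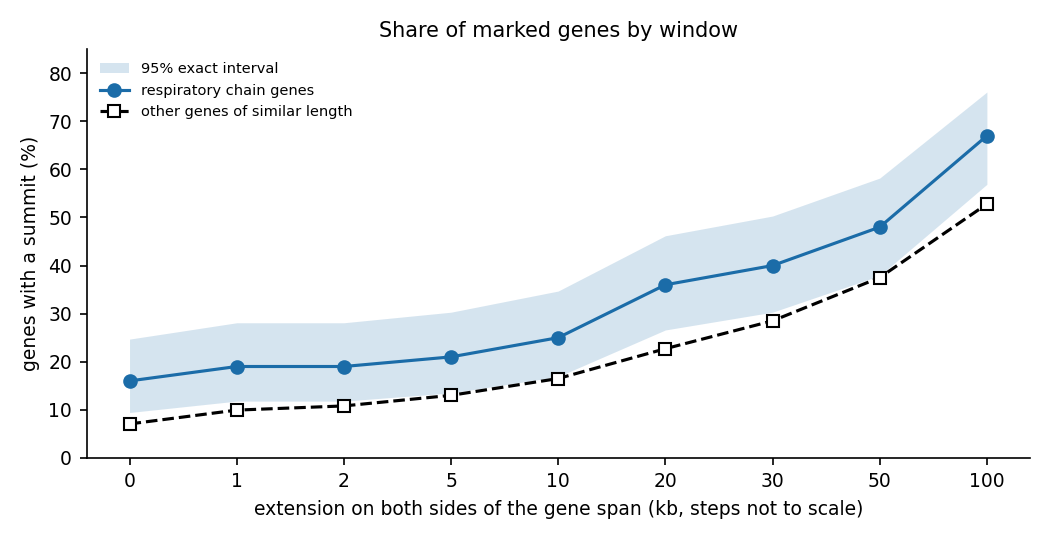
Share of genes with a summit in the span or within the given distance of it (horizontal axis in kb, vertical axis in percent), for the 100 respiratory chain genes with 95% exact intervals and for other genes of similar length. The members lie above the comparison genes at every window drawn, from 16.0% against 7.05% with no extension to 67.0% against 52.8% at 100 kb.

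In the 30 kb window all 5 complexes had a higher marked share than genes of their own lengths, but none of the intervals was narrow enough to order the complexes. Complex I had 18 of 49 marked (36.7%, 23.4 to 51.7, against 29.2% at similar length) and complex II had 4 of 8 (50%, 15.7 to 84.3, against 30.9%). Complex III had 4 of 8 (50%, 15.7 to 84.3, against 28.7%), complex IV 7 of 18 (38.9%, 17.3 to 64.3, against 25.3%) and complex V 7 of 17 (41.2%, 18.4 to 67.1, against 28.3%). In every complex the interval held the share of genes of similar length. The direction turned in complex II with its 4 subunits alone (1 of 4, 25%, against 32.3%) and in complex V with only peaks of −log10 q of at least 10 (2 of 17, 11.8%, against 17.3%).

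The complexes were further apart in how many genes had a summit within 1 kb of an end. Complex V had 5 of 17 (29.4%, 10.3 to 56.0, against 6.39% at similar length), and the same 5 genes had a summit inside the span. Most of these peaks were weak. The gene-end summits of Atp5a1, Atp5d, Atp5h and Atp5pb had −log10 q of 6.18, 5.08, 5.92 and 9.25, and only Atp5g2, with 36.3, reached 10. Complex IV had 1 of 18 (5.56%, 0.141 to 27.3, against 5.55%), which was the share of its comparison genes to within 0.00770 points. Complex I had 7 of 49 (14.3%, 5.94 to 27.2, against 6.58%), complex II 1 of 8 and complex III 2 of 8. The intervals of complexes IV and V overlap.

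**Figure D2:**
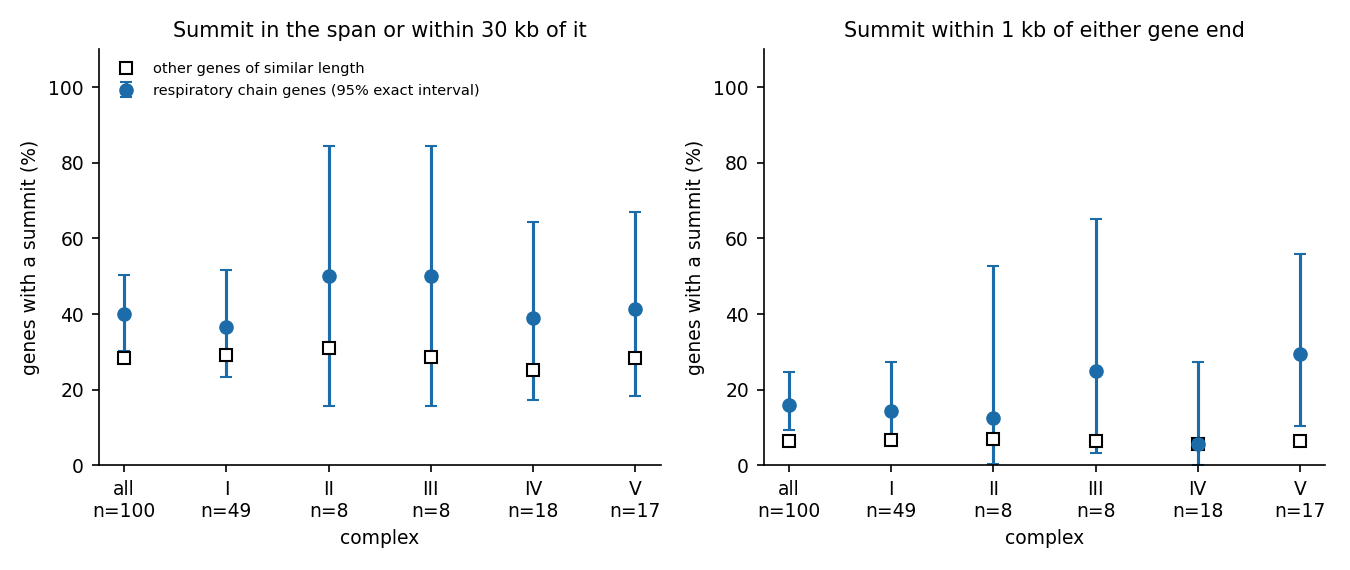
Share of respiratory chain genes with a summit (percent), for all 100 and for each complex, with 95% exact intervals; open squares are other genes of similar length. On the left (within 30 kb of the span) the complexes lie between 36.7% and 50%, and on the right (within 1 kb of either end) complex V is highest at 29.4% and complex IV lowest at 5.56%. Of the complex V genes counted on the right, only Atp5g2 has a peak there with −log10 q of at least 10.

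The members were also divided by role, with Cox isoforms and the conserved core of complex I counted among the subunits. Of 84 subunits 33 were marked (39.3%, 28.8 to 50.5, against 28.6% at similar length), and of the 12 assembly factors, the proteins that build a complex without staying in it, 6 were marked (50%, 21.1 to 78.9, against 29.6%). In complex II the marked genes were 1 of its 4 subunits, Sdhc, and 3 of its 4 assembly factors, Sdhaf1, Sdhaf2 and Sdhaf4 (75%, 19.4 to 99.4, against 29.4%). Of the 7 core subunits of complex I, which carry its cofactors and are conserved from bacteria, 3 were marked (42.9%, 9.90 to 81.6, against 30.7%), and 0 of 7 had a summit inside the gene or within 1 kb of an end, which allows a share of up to 41.0%. Of the 7 isoforms for particular tissues or conditions, 2 were marked, Cox6b2 and Cox7b2 (28.6%, 3.67 to 71.0, against 20.2%). These groups are small, and their intervals overlap.

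Start sites were taken from the RefSeq promoter table, which has an entry for 82 of the 100 members. A summit lay within 1 kb of a start site in 13 of the 82 (15.9%, 8.72 to 25.6), where the background over all protein-coding genes with an entry was 6.55% and genes of similar length had 5.98%. The 13 were 7 genes of complex I (of 42), 1 of complex II (of 7), 1 of complex III (of 5), 1 of complex IV (of 13) and 3 of complex V (of 15). Each complex was above its comparison share at similar length, which ran from 5.58% to 6.65%. Complexes II, III and IV did so with 1 gene each, which is enough in groups this small. Their intervals were 0.361 to 57.9, 0.505 to 71.6 and 0.195 to 36.0. The count was also 13 of 82 at 500 bp and at 2 kb. With only peaks of −log10 q of at least 10 it was 9 of 82 (11.0%, against 3.39% at similar length).

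The summits at member start sites lay mostly just downstream. Of 15 pairs of a member and a summit within 1 kb, 11 (73.3%) had the summit after the start site, against 518 of 1174 pairs (44.1%) for other genes. The median position was +64.0 bp for members, with quartiles at -36.0 and 126 bp, and -43.5 bp for other genes, with quartiles at -251 and 222 bp. Within 300 bp of the start site lay 80% of the member pairs and 57.6% of the others. The 15 pairs come from 13 members, since Cox5a and Atp5g2 count more than once, and the other genes were not matched for length. In 4 of the 13 members (30.8%) the summit was also within 1 kb of another gene's start site, against 19.9% of other genes. These were Ndufa1, Ndufa5, Atp5h and Atp5pb, all with the summit after the member's start site. Only start sites with an entry in the promoter table could be counted, so both shares are lower limits. The summits at Ndufs6 and Ndufaf3 also lay 236 bp from Mrpl36 and 515 bp from Dalrd3, and the one at Ndufv3 lay within Wdr4. The fold enrichment is the authors' ratio of the pileup of fragments to the local background. For the strongest start-site summit of each gene it was 10 or more in 7 of 13 members (53.8%) and in 299 of 1133 other genes (26.4%).

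**Figure D3:**
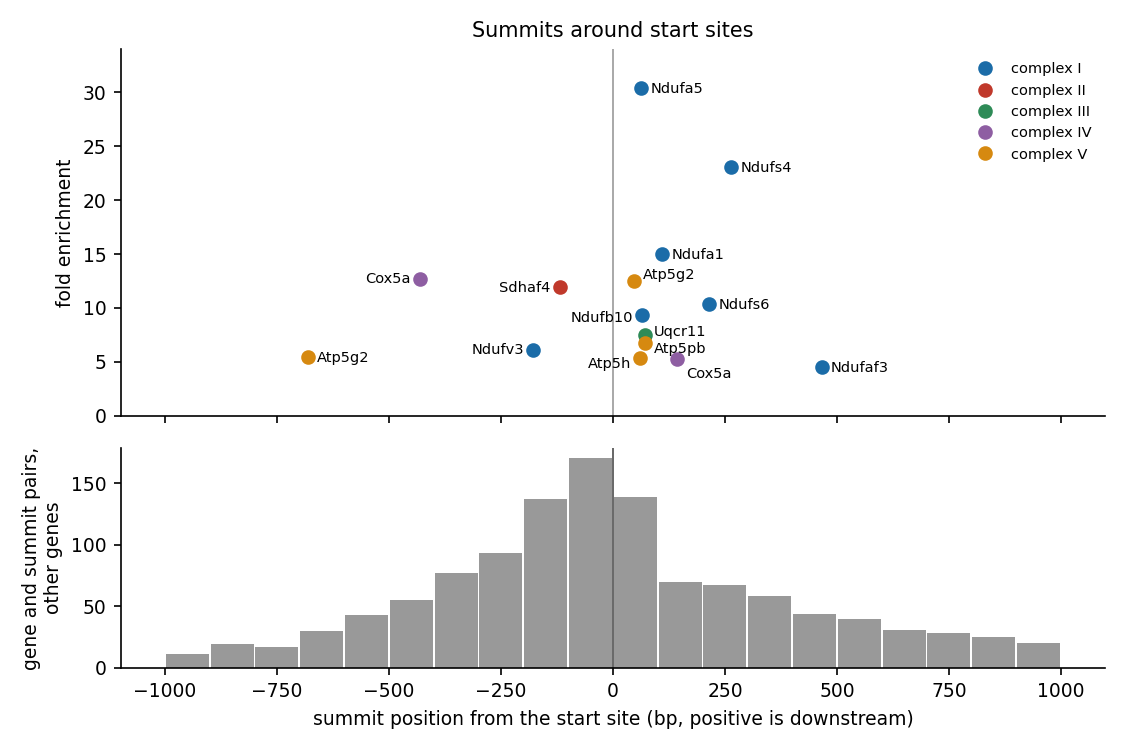
Summits within 1 kb of a start site, by position (horizontal axis in bp, positive is downstream): the upper panel gives the fold enrichment of each of the 15 member summits by complex, and the lower panel counts the 1174 pairs of other genes in bins of 100 bp. The member summits gather just after the start site, with a median of +64.0 bp against -43.5 bp for other genes.

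Among complex I genes the strongest peak was at Ndufa5, an accessory subunit of the matrix arm. Its peak at chr6:24527455-24527789 had its summit 63 bp after the start site, inside the gene, with a fold enrichment of 30.4. The pileup there, the authors' scaled height of stacked fragments, was 103, which stands for 110 fragments (exact Poisson interval of the pileup 84.9 to 124, for counting error only), and −log10 q was 121. It was rank 51 of 7484 peaks by fold. The start site of Asb15, a SOCS box gene, also lay within 1 kb of that summit, so the peak cannot be given to 1 of these genes alone.

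Ndufs4, an accessory subunit of the NADH-binding module whose loss in mice gives a Leigh-like brain disease, had a peak at chr13:114387600-114388151. The summit was 264 bp after the start site, with a fold of 23.1, a pileup of 65.7 (51.2 to 83.0) and −log10 q of 70.2, at rank 156. The nearest other protein-coding gene, Fst, was 64.4 kb away, so among the member start sites with a strong peak this was the most isolated.

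The other start sites of complex I genes had lower peaks. Ndufa1, a small membrane subunit needed for assembly, had its summit 110 bp after the start site on the X chromosome, with a fold of 15.0, a pileup of 42.3 and −log10 q of 37.3; Rnf113a1 has a start site within 1 kb as well. It was 1 of 3 members on that chromosome, the other two being unmarked. Ndufs6, a zinc-binding subunit, had a summit at +215 bp with a fold of 10.4, a pileup of 29.1 and −log10 q of 20.9, and the mitochondrial ribosomal gene Mrpl36 lay 236 bp from it. Ndufb10, of the membrane arm, had a summit at +64 bp with a fold of 9.37, a pileup of 26.3 and −log10 q of 17.3. These were all accessory subunits.

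Weaker peaks were found at the start sites of Ndufv3 and Ndufaf3. Ndufv3, an accessory subunit of the NADH-binding module, had its summit 179 bp upstream, within the span of Wdr4, with a fold of 6.10, a pileup of 17.8 and −log10 q of 7.40. Ndufaf3, an early assembly factor, had a summit at +467 bp with a fold of 4.53, a pileup of 12.2 (6.50 to 20.9) and −log10 q of 3.69. The peak at Ndufaf3 stands for 13 fragments, near the lowest count of the list, which was 10.

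The remaining 11 marked genes of complex I had no summit within 1 kb. A related gene, Ndufb4c, had the highest fold of these, 25.1, with a pileup of 71.4 and −log10 q of 79.4, but that summit was 6.04 kb away and inside Mroh5. Of the core subunits, Ndufs3 had a fold of 12.5 at 26.1 kb, 1.75 kb from Mtch2, and Ndufv1, which binds NADH and flavin, had 7.32 at 4.23 kb, 115 bp from Doc2g. Ndufv2, an iron-sulphur subunit, had 4.72 at 10.1 kb, inside Washc1. All 3 core subunit summits were thus nearer to another gene.

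The same held for most of the others. Ndufa13, an accessory subunit also known as GRIM-19, had a fold of 11.3 at 19.9 kb, 2.01 kb from Pbx4. Ndufaf7, an assembly factor, had 8.70 at 4.86 kb inside Cebpz, and Ndufa2 had 8.16 at 7.15 kb inside Tmco6. Accessory subunits Ndufa10, Ndufs5 and Ndufa7 had folds of 6.20 at 14.5 kb, 5.55 at 15.7 kb and 5.22 at 5.24 kb. The assembly factor Ndufaf6 had 6.12 at 29.6 kb. The summit near Ndufa10 was the exception, with no other protein-coding gene closer than 54.7 kb.

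In complex II the only summit near a start site was at Sdhaf4, a factor that helps the flavin-bearing Sdha join Sdhb. It lay 119 bp upstream, with a fold of 11.9, a pileup of 44.1 (32.4 to 58.7) and −log10 q of 32.9, and the next gene, Fam135a, was 4999 bp away. Sdhc, a membrane anchor that helps bind ubiquinone, had 4 peaks. The strongest had a fold of 15.9, a pileup of 50.7 and −log10 q of 44.4 but lay 22.1 kb away and 488 bp from Pcp4l1, while the one inside Sdhc had a fold of 4.56 and was 1165 bp from the gene end. Sdhaf2, which is needed for flavin attachment to Sdha, had a fold of 6.02 at 15.1 kb inside Ppp1r32, and Sdhaf1, which serves iron-sulphur insertion into Sdhb, had 4.57 at 12.9 kb. The catalytic subunits Sdha and Sdhb were unmarked, as were Sdhd and Sdhaf3.

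Complex III had its 2 nearest summits at small subunits. Uqcr11 had one 71 bp after the start site, with a fold of 7.53, a pileup of 21.6 (13.7 to 32.4) and −log10 q of 11.6. Uqcrb, which lines the ubiquinone site, had one 37 bp outside its span, with a fold of 7.75, a pileup of 21.6 and −log10 q of 11.9, and Gm10767 was 28 bp from it. Uqcrc2, a large core protein, had a fold of 8.78, a pileup of 25.4 and −log10 q of 15.8 at 18.8 kb inside Mosmo, and Uqcrh, the acidic hinge protein, had a fold of 7.22 at 13.3 kb inside Nsun4. No peak of complex III reached a fold of 10, and the Rieske iron-sulphur protein gene Uqcrfs1 was unmarked with Uqcr10, Uqcrc1 and Uqcrq.

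In complex IV the peaks inside genes were in Cox5a, Cox6c and Cox7b2. Cox5a, a matrix-side subunit, had a pair of summits around its start site. The upstream one, at -431 bp, had a fold of 12.7, a pileup of 35.7 (25.3 to 49.0) and −log10 q of 28.2, and the downstream one, at +143 bp, a fold of 5.22, a pileup of 14.1 and −log10 q of 5.38. Both are inside the annotated span, which begins 3473 bp before the upstream summit, so Cox5a counts at its start site and not at a gene end. Cox6c had a summit 307 bp inside its nearest end, with a fold of 5.87, a pileup of 16.0 and −log10 q of 6.22. The testis isoform Cox7b2 had one deep inside, 27.7 kb from its start site, with a fold of 6.71, a pileup of 19.7 and −log10 q of 9.25.

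The tallest peak near a complex IV gene was not at the gene. Cox6b2, another testis isoform, was marked by a summit with a fold of 26.8, a pileup of 100 (82.3 to 121) and −log10 q of 111, at rank 89, but it was 11.9 kb away and 183 bp from the histone methyltransferase gene Kmt5c. Cox8a had a fold of 7.82, a pileup of 21.6 and −log10 q of 12.0 at 10.2 kb inside Naa40. Cox4i1, the common form of subunit 4, had 6.41 at 14.4 kb and Cox6b1 had 4.24 at 28.8 kb inside Kmt2b. Cox5b, Cox6a1, Cox7a2, Cox7b, Cox7c and the supercomplex factor Cox7a2l were unmarked, with the isoforms Cox4i2, Cox6a2, Cox7a1, Cox8b and Cox8c.

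Complex V had its strongest peak at Atp5g2, which with Atp5g1 and Atp5g3 encodes the c subunit of the proton-driven ring. The summit at chr15:102670834-102671147 was 47 bp after the start site, with a fold of 12.5, a pileup of 48.8 (36.5 to 64.0) and −log10 q of 36.3, and a second summit lay 680 bp upstream with a fold of 5.48, a pileup of 18.8 and −log10 q of 6.77. No other protein-coding gene was within 35.0 kb of either. Atp5g1 and Atp5g3 were unmarked.

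The peripheral stalk genes Atp5pb and Atp5h, for subunits b and d, also had summits just after their start sites. Atp5pb had one at +72 bp, with a fold of 6.71, a pileup of 19.7 (12.2 to 30.1) and −log10 q of 9.25, and the start site of Wdr77 was within 1 kb. Atp5h had one at +60 bp, with a fold of 5.34, a pileup of 15.0 (8.59 to 24.4) and −log10 q of 5.92, and the start site of Kctd2 was within 1 kb. Each therefore shares its peak with the gene beside it.

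The catalytic head gave weaker or more distant peaks. Atp5a1, the α subunit, had a summit 756 bp inside its nearest end with a fold of 5.50, a pileup of 15.0 and −log10 q of 6.18, and Haus1 was 639 bp from it. Atp5b, the catalytic β subunit, had a fold of 9.72, a pileup of 28.2 and −log10 q of 19.1, but at 25 kb and 687 bp from Ptges3. Atp5d, of the central stalk, had a summit 92 bp inside its far end with a fold of 5.03, a pileup of 14.1 and −log10 q of 5.08. The nearer of its 2 annotated start sites was 3421 bp from that summit. The highest fold of Atp5d, 5.55, was at a summit 3.09 kb outside and within 1 kb of the start site of Midn. Atp5l, the membrane subunit g, had a fold of 6.91, a pileup of 19.7 and −log10 q of 9.58 at 7.36 kb, and no other protein-coding gene was nearer.

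**Figure D4:**
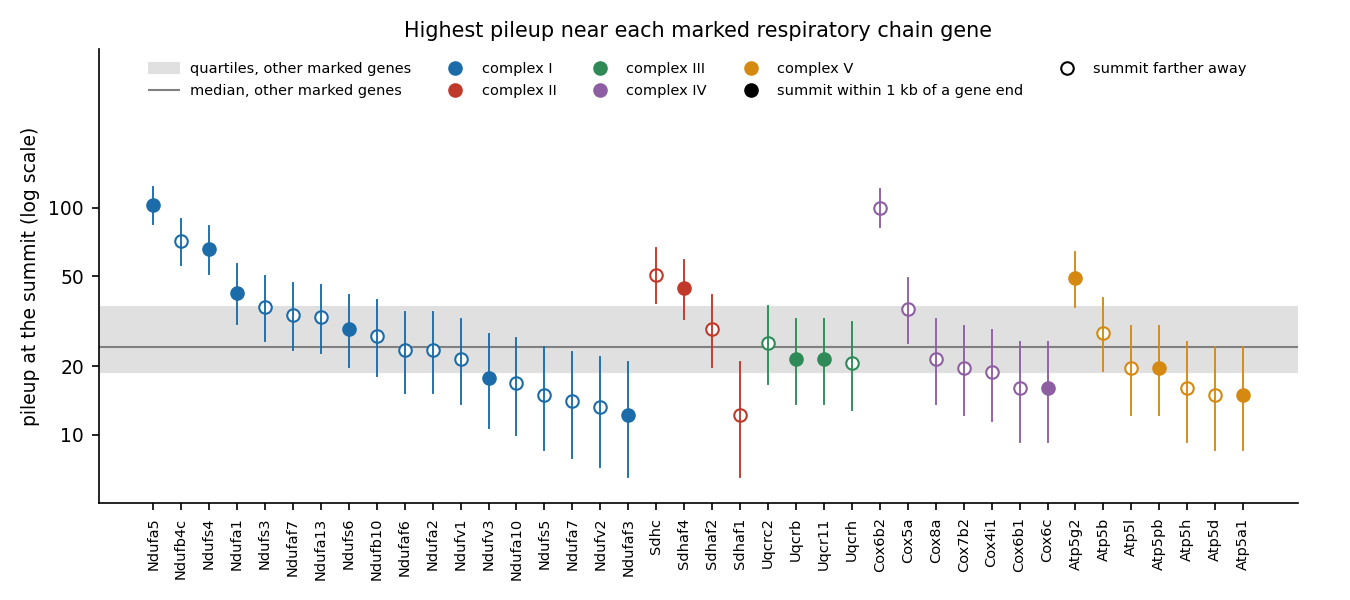
Highest summit pileup (log scale) within 30 kb of each of the 40 marked members, grouped by complex, with exact Poisson 95% intervals for counting error; filled points lie within 1 kb of a gene end, open points farther away, and the grey band and line are the quartiles and median of other marked genes. Values run from 12.2 at Ndufaf3 and Sdhaf1 to 103 at Ndufa5, and 2 of the highest, Cox6b2 and Ndufb4c, are open points. Each point is the highest peak only, so Ndufb10, Atp5d and Atp5h are open although each has a lower summit within 1 kb of an end.

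Marked members had peaks of ordinary height. The strongest pileup per gene had a median of 21.6 (95% exact interval of the median 19.7 to 29.1, range 12.2 to 103), against 23.5 for marked genes of similar length and 24.4 for all other marked genes. The median fold was 7.43 (6.20 to 9.37), against 7.79 at similar length. A fold of 10 or more was reached by 12 of the 40 (30%), against 30.8% at similar length. By complex the median pileup was 25.4 in complex I, 36.6 in complex II, 21.6 in complex III, 19.7 in complex IV and 19.7 in complex V, from 4 to 18 genes each. Members and other genes thus differed by less than the interval of the members' median.

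The wide window gives many summits to more than the gene named. The nearest summit was inside the gene for 16 marked members, outside within 1 kb for 3, at 1 to 5 kb for 2 and at 5 to 30 kb for 19 (47.5%, against 41.0% of other marked genes). Only 19 of 40 (47.5%) were the nearest protein-coding gene to any of their summits, against 4072 of 7055 other marked genes (57.7%). Neither comparison was matched for length, and marked members had a median span of 8.29 kb against 25.2 kb for other marked genes. For 13 marked members the strongest summit was inside another protein-coding gene. No summit was near more than 1 member, so the 40 genes rest on 54 separate summits. Taking only nearest genes, 19 of the 100 members were marked, against 11.8% at similar length.

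A second reading of position was taken within the marked genes alone. Of the 40, 16 (40.0%, 24.9 to 56.7) had a summit within 1 kb of a gene end, against 22.3% of marked genes of similar length. In complex V this was 5 of 7 (71.4%, 29.0 to 96.3, against 22.9%), and in complex IV 1 of 7 (14.3%, 0.361 to 57.9, against 21.5%). Of the 5 in complex V, only Atp5g2 had such a summit with −log10 q of at least 10. At the 30 kb limit, Ndufaf6 at 29557 bp and Cox6b1 at 28832 bp were the last members inside. Just outside were Ndufa6 at 31733 bp, Ndufa11 at 32585 bp with a fold of 13.5, Ndufaf8 at 33549 bp, Uqcrq at 36339 bp with a fold of 20.5 and Ndufb8 at 37758 bp.

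The 60 unmarked members included 31 of complex I. Among them were the core subunits Ndufs1, Ndufs7 and Ndufs8, the acyl carrier subunit Ndufab1, and the assembly factors Ndufaf1, Ndufaf2, Ndufaf4, Ndufaf5 and Ndufaf8. The other unmarked accessory subunits were Ndufa3, Ndufa4, Ndufa6, Ndufa8, Ndufa9, Ndufa11, Ndufa12, Ndufb1, Ndufb2, Ndufb3, Ndufb4, Ndufb5, Ndufb6, Ndufb7, Ndufb8, Ndufb9, Ndufb11, Ndufc1 and Ndufc2, with the related genes Ndufa4l2 and Ndufb4b. In complex V the unmarked genes were Atp5c1, Atp5e, Atp5g1, Atp5g3, Atp5j, Atp5j2, Atp5k, Atp5md, Atp5mpl and Atp5o. For these genes no peak was called within 30 kb at the depth of this list, which does not show that the receptor is absent there.

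The start-site windows, 300 bases each from 250 before to 50 after, were searched on both strands for 4 motifs in 87 windows of the 82 members and 21262 windows of all protein-coding genes. The receptor half-site AGGTCA was in 18 member windows (20.7%), against 14.7% of all windows. The direct repeat of 2 exact copies of AGGTCA 4 bases apart was in 0 of 87 and 0 of 21262 windows. Since no window of any gene held this exact form, the count says nothing particular to the members. AGGTCA-like repeats that are not exact were not searched. The core CGCATGCG of the motif of nuclear respiratory factor 1, a regulator of respiratory genes, was in 11 windows (12.6%), against 2.52% of all. CCGGAAG, the ETS motif bound by GABP, another regulator of these genes, was in 22 (25.3%), against 11.6%.

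The motif shares were then set beside the peaks. The windows stop 50 bases after the start site. The median start-site summit lay past that limit for members, at +64.0 bp, and inside the window for other genes, at -43.5 bp. The member shares therefore often describe sequence away from the summit. They cannot show which motifs lie under the member summits, or how these compare with other genes. Among the 14 windows of the 13 members with a start-site summit, the half-site, the NRF1 core and the ETS motif were each in 2 (14.3%), too few to rank. Among the 73 windows of the other members, the shares were 21.9%, 12.3% and 27.4%. In the 1570 windows of other genes with a start-site summit they were 14.2%, 4.14% and 17.3%. In the printed sequences, Atp5g2 has CGCATGCG 41 bases before the start site and Atp5h has CTTCCGG, the ETS motif on the other strand, 38 bases before, both inside the peak. Ndufb10 has AGGTCA 162 bases before the start site, outside the peak. The half-site counted for Ndufa5, which has 2 annotated start sites, is not in its printed bases, and its place is not given here. Uqcr11, not printed, has the ETS motif 66 bases before its start site. Its NRF1 core begins 5 bases before that site and runs past it, and both motifs are inside the peak. Median GC content was 58.7% in member windows and 56.3% in all windows.

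Related gene groups were counted by the same rules. Assembly factors of the chain that the symbol rule leaves out were marked in 21 of 37 (56.8%, 39.5 to 72.9, against 31.4% at similar length). They had a start-site summit in 13 of 32 (40.6%, against 6.35%). Their strongest peaks were near Ttc19, a complex III factor, with a fold of 18.2, and the complex IV factors Coa5 with 18 and Cox16 with 15.5. Mitochondrial ribosomal proteins, which translate the mitochondrial part of the chain, were marked in 28 of 78 (35.9%, against 29.4%), with start-site summits in 9 of 69 (13.0%, against 6%). Their strongest peaks lay outside the genes. They were 13604 bp from Mrps18b with a fold of 24.1, 22143 bp from Mrpl34 with 17.9 and 11610 bp from Mrpl10 with 16.3.

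Among metabolic genes, the tricarboxylic acid cycle, which supplies NADH and succinate, had 10 of 18 marked (55.6%, 30.8 to 78.5, against 35.1%) and 4 of 16 with a start-site summit (25%, against 7.44%). Its marked genes included Mdh2 with a fold of 18.4 at 17651 bp from the gene, and Dlst with 13.3 inside the gene. Glycolysis had 5 of 17 (29.4%, 10.3 to 56.0, against 33.0%). Its highest folds were 17.9 at 15686 bp from Pgam1, 7.46 at 5771 bp from Eno1 and 5.65 at 21837 bp from Aldoa. Of 22 regulators of mitochondrial biogenesis 12 were marked (54.5%, 32.2 to 75.6, against 36.8%), with 2 of 21 at a start site (9.52%, against 7.36%). The coactivator Ppargc1a had 5 peaks, the strongest inside the gene with a fold of 16.9. Its relative Ppargc1b had a fold of 14.6 inside the gene, and Mterf1a had 13.9 at 15354 bp from the gene. Nucleotide carriers, porins and uncoupling proteins had 5 of 12 (41.7%, against 31.0%). Their highest folds were 9.72 at 28566 bp from Vdac3, 8.80 inside Slc25a31 and 8.08 at 5934 bp from Slc25a4. Cycs, for cytochrome c, had a summit 76 bp upstream of its start site with a fold of 6.21, and was the only marked gene of its list of 3.

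**Figure D5:**
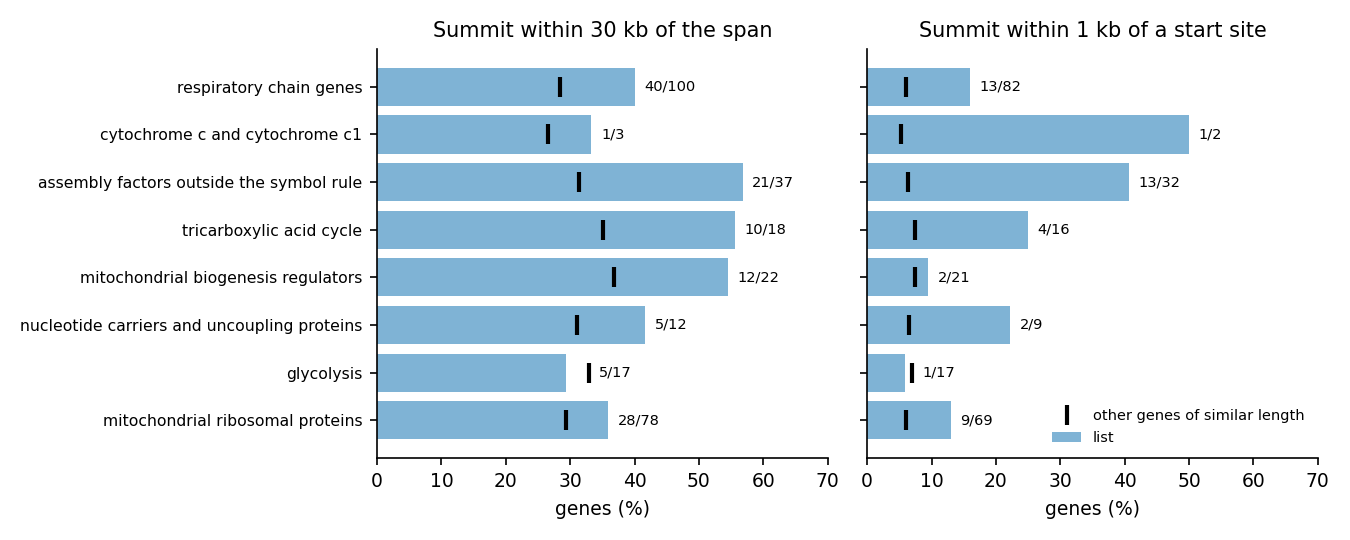
Share of genes marked within 30 kb (percent) on the left, and with a summit within 1 kb of a start site on the right, for the respiratory chain genes and each related list (bars, from 0), with counts beside them and vertical marks for other genes of similar length. Assembly factors outside the symbol rule are highest on the left at 56.8% and glycolysis lowest at 29.4%.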

How the data were processed

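Chromatin immunoprecipitation libraries (1 input, 3 IP fractions) were grouped from the labels. The submitters' processing notes name the tools Bowtie2 (2.3.4.2) and, beside it, MACS2 (2.1.1.20160309.0), without their roles, and as builds GRCm38 and mm10; it is not stated whether the fractions were pooled or reads had to map to 1 place. The authors deposited 1 list of 7484 peaks with positions, per the file headers. The deposited pileup is a scaled signal, the deposited fold enrichment is a linear ratio over local background, and the deposited q-value column gives −log10 q; p-values were not used here.

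Deposited pileups are multiples of 0.939, so summits stood for 10 to 305 fragments (median 23); this sets the precision, and intervals cover counting error only, since reads from PCR are not independent molecules. Library totals were not used here. Peaks were joined to RefSeq GRCm38.p6 gene spans with Python 3.11.15, pandas 2.3.3, numpy 2.4.6 and scipy 1.17.1, and drawn with matplotlib 3.10.9. Shares at similar length are means of non-member protein-coding genes over 10 equal-count length classes, weighted by the members per class. The counting was checked on constructed data with known answers. Every marked member was named with its strongest peak, by fold, and those inside the span or within 1 kb of an end, or among the 3 highest folds of a complex, with full values; of the related lists the 3 highest folds were named. Some genes that these rules would name are not reported here.

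The members and lists were chosen with earlier results of these data known. Other windows, peak filters, nearest-gene assignment, subunits only, and other comparison genes were tried; start sites and a comparison by length and neighbour number were added after seeing the data.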

Additional observations from a re-analysis of the deposited data

How the results depend on the processing

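The share of members marked was 16.0% with the span alone, 21.0% at 5 kb, 25% at 10 kb and 67.0% at 100 kb, 23.0% with −log10 q of at least 10 or with fold at or above the median of the list, and 19.0% with nearest genes only. Complex I gave 12.2%, 18.4% and 65.3% with the span alone, at 5 kb and at 100 kb, 22.4% under either peak filter and 14.3% with nearest genes. Complex IV gave 16.7% with the span alone, at 5 and 10 kb, under either peak filter and with nearest genes. Complex II and III gave 12.5% with the span alone, complex III 87.5% at 100 kb and 12.5% with nearest genes; both gave 25% at 5 and 10 kb, as did complex II by fold, with nearest genes and with subunits only. Complex V gave 76.5% at 100 kb, 11.8% by q and 17.6% by fold. The share of marked members with a summit near a gene end was 81.2%, 76.2%, 64% and 23.9% with the span alone and at 5, 10 and 100 kb, and 73.7% with nearest genes. The median pileup was 32.9 under either peak filter. A narrower window or fewer peaks marks fewer genes by construction. The difference of all members from genes of similar length was above 0 under every setting run; it was 5.49 points by q, 5.99 by fold, 7.17 with nearest genes and 9.87 with length and neighbour number both matched, the last added after seeing the data. No paired analysis was possible because the list has no value per library. Depth limits the weakest peaks, which stand for 10 fragments.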
